A study of Mus musculus with 151 samples.

Results

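The cochlear inner hair cells (IHCs) taken from wild-type mice at postnatal day 14 (P14_WT IHCs) differed widely from each other in *Igfbp5*, and they were divided by this gene into the 27 cells with the highest and the 28 cells with the lowest level. These 55 cells are all the P14_WT IHCs of the series, which also holds 50 P30_WT IHCs and 46 P14_iOHCs. The level is the count of *Igfbp5* in a cell divided by the total count of that cell, times 1000000 (CPM). Cells with the same level were kept in the order of the deposited columns. A gene other than *Igfbp5* was compared between both groups when 10 cells or more of the 55 held 5 or more counts of it, which left 11170 of 55291 genes. *Igfbp5* itself chose the groups, so its difference between them is a description and not a result.

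IHCs are the sensory cells that pass sound signals to the auditory nerve through ribbon synapses, whereas outer hair cells (OHCs) amplify sound by changing their length. *Igfbp5* encodes a secreted protein that binds insulin-like growth factors in the extracellular space, where it limits or prolongs their access to the receptor encoded by *Igf1r*, and it also binds extracellular matrix. In the first weeks after birth IHCs mature: cholinergic efferent contacts on the cells are withdrawn, the potassium currents of the adult cell appear and the calcium buffers of the cytoplasm change.

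The P14_WT IHCs came from C57BL/6 mice of genotype vGlut3-P2A-iCreER/+; Ai9/+ at postnatal day 14. The P30_WT IHCs came from mice of the same strain and genotype at postnatal day 30, and the P14_iOHCs from vGlut3-P2A-iCreER/+; Tbx2 flox/-; Ai9/+ mice at postnatal day 14, in which the Cre is meant to delete *Tbx2* in IHCs and the cells then become OHC-like (induced OHCs). All 3 kinds of cell thus carry the tamoxifen-dependent Cre, which is expressed from the vGlut3 (*Slc17a8*) locus, and the Ai9 reporter, and each library is 1 Tdtomato+ cell that was picked by hand after enzymatic dissociation. The paper describes tamoxifen in the first days after birth for mice with this Cre and reporter and for neonatal deletion of *Tbx2*. As P14_iOHCs its authors picked smaller Tdtomato+ cells and left larger ones, which they took for unchanged IHCs. No label or method names the animal of a cell or the place of the cell along the cochlea, so all cells of 1 kind count as 1 sample. No test was therefore run over cells, and SD, ranges and shares below describe the spread between cells only.

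The label of the cells was checked against defining markers. *Slc17a8*, which encodes the vesicular glutamate transporter of IHCs, had counts in 55 of 55 P14_WT IHCs, from 470 to 2138 CPM. *Otof*, which encodes the calcium sensor of the IHC synapse, also had counts in all 55 cells, from 2168 to 6115 CPM. The OHC motor protein gene *Slc26a5* had counts in 2 of the 55 cells, with a highest count of 79, and the OHC transcription factor gene *Ikzf2* had 1 count in 1 cell. *Tbx2*, the gene deleted in the P14_iOHCs, averaged 260 CPM with an SD of 127 CPM over the P14_WT IHCs and 69.3 CPM in the P14_iOHCs, where counts per gene do not show which cells lost it.

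The total count per P14_WT IHC lay between 4326416 and 22622030, so that a cell with 0 counts of a gene could still hold up to 3 counts, which is 0.133 to 0.693 CPM. This bound covers the sampling of reads only. It does not cover molecules lost before amplification, so a count of 0 does not show that a transcript was absent. Totals formed a lower and an upper set, and the high group held 8 cells of the lower and 19 of the upper set, against 8 and 20 in the low group. Counts of Y-linked genes (at least 10 in a cell) were present in 16 cells of each group. A cell of the high group had 8607 ± 578 genes with a count (SD, n = 27 cells) and a cell of the low group 8897 ± 475 (SD, n = 28 cells). Mitochondrial transcripts took 7.29 ± 3.90% (SD) of the counts in the high group, with 1 cell at 21.9%, and 5.81 ± 2.29% (SD) in the low group. The mean log2(CPM + 1) over 24 supporting-cell markers was 1.22 ± 0.88 (SD) in the high group and 1.19 ± 0.84 (SD) in the low group. The part of these differences in the results below was not tested. No 2 of the 55 libraries were identical among 1485 pairs.

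*Igfbp5* (ENSMUSG00000026185.8) lies on the minus strand of chromosome 1 of GRCm38, from 72857932 to 72874884. Across the 55 P14_WT IHCs it ran from 0 to 4414 CPM with a median of 1138 CPM, and 53 cells had at least 1 count. The 27 cells of the high group lay between 1168 and 4414 CPM, with a median of 2178 CPM and a mean of 2392.5 ± 994 CPM (SD). The 28 cells of the low group lay between 0 and 1138 CPM, with a median of 503 CPM and a mean of 454 ± 398 CPM (SD). The last cell of the high group was thus at 1168 CPM and the first cell of the low group at 1138 CPM, so that no gap marks the border. A gap was present further down, since 8 cells lay at or below 22 CPM and the next cell at 102 CPM. Pooled over cells, the high group had 2356 CPM (exact Poisson 95% interval 2351 to 2361) and the low group 405 CPM (403 to 407). These intervals leave out the spread between cells, because the counts were summed over cells. The reads were amplified and carry no molecular identifiers, so reads are not independent molecules. The intervals are therefore too narrow for the counting error of molecules as well.

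For comparison, *Igfbp5* ran from 922 to 6445 CPM in the 50 P30_WT IHCs, with a median of 2788 CPM and a mean of 2973 ± 1201 CPM (SD). In the 46 P14_iOHCs it ran from 0.0691 to 4743 CPM, with a median of 276 CPM and a mean of 654 ± 1000.4 CPM (SD). The ranges of the 3 kinds of cell overlapped. In order of the means the P30_WT IHCs stood first, the P14_WT IHCs second and the P14_iOHCs last, and neighbours in this order were not separated by their spread. The P14_iOHCs held 13 cells under 50 CPM and the P30_WT IHCs none, against 8 of the 55 P14_WT IHCs.

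**Figure D1:**
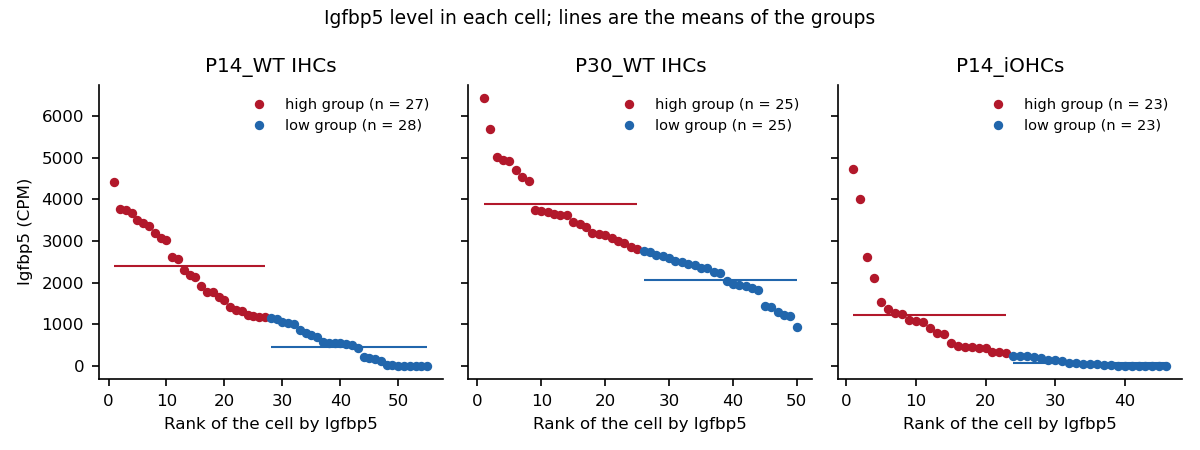
*Igfbp5* level in CPM (linear axis) against the rank of the cell, for 55 P14_WT IHCs, 50 P30_WT IHCs and 46 P14_iOHCs; each point is 1 cell, red for the high group and blue for the low group, and lines are the means of the groups. In the P14_WT IHCs the level falls without a step at the border of the groups, from 1168 to 1138 CPM, and 8 cells lie at or below 22 CPM.

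The 250 bases before the start of *Igfbp5* are shown because the cells were ranked by this gene, beside those of *Chrna9*, a gene that was lower in the high group and whose window holds a T-box core motif. Both are from RefSeq on GRCm38.p6, printed 5′ to 3′ on the strand of the gene. The *Igfbp5* window is chr1:72874866-72875115 on the minus strand. Its last bases lie inside the *Igfbp5* span of GENCODE M21, which begins at 72874884 on this strand. The *Chrna9* window is chr5:65966874-65967123 on the plus strand, inside the longer *Chrna9* span of GENCODE M21. Capitals mark AGGTGTG, the T-box core motif, which was searched on both strands (CACACCT on the other strand) since *Tbx2* encodes a T-box factor.
Igfbp5: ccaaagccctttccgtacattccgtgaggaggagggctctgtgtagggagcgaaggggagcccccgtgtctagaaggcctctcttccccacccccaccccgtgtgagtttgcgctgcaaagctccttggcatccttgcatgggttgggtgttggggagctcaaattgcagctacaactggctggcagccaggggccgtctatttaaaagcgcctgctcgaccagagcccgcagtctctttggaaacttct
Chrna9: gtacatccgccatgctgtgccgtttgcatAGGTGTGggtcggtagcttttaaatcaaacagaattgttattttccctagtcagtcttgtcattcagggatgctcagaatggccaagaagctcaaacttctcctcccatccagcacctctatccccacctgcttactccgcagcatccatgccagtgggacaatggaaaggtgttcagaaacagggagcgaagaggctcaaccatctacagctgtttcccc

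These letters are not in the *Igfbp5* window and occur once in the *Chrna9* window. They occur in 5.1% of all 32851 windows of this length and in 4.41% of the windows of 8156 tested genes. Among the genes singled out below, the windows of 1 of 5 higher genes (*Fmn1*) and 3 of 27 lower genes (*Chrna9*, *Ocm* and *Svbp*) hold them. A match is a run of letters and not a binding site.

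Genes were described by 2 limits set together, a mean CPM at least 2-fold apart between the groups and a pair share of at least 0.75. The pair share is the fraction of the 756 pairs of 1 cell from each group in which the cell of the high group has the higher CPM, with ties counted as 0.5, so that 0.5 means no separation. For genes that were lower in the high group the pair share had to be at most 0.25. Both limits were passed by 6 genes that were higher in the high group (0.0537% of the genes tested) and by 35 genes that were lower (0.313%). The fold alone was passed by 691 genes in the direction of the high group and by 820 in the other, and the pair share alone by 18 and 52 genes. The median log2 ratio over all tested genes was -0.02. In each of the 41 genes the ranges of the 2 groups overlapped, so none of the 41 separated the groups fully. When the 8 cells under 50 CPM of *Igfbp5* were left out, 16 genes were higher and 44 lower, of which 4 and 24 were among the 6 and 35, so which genes pass depends on the cells included.

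**Figure D2:**
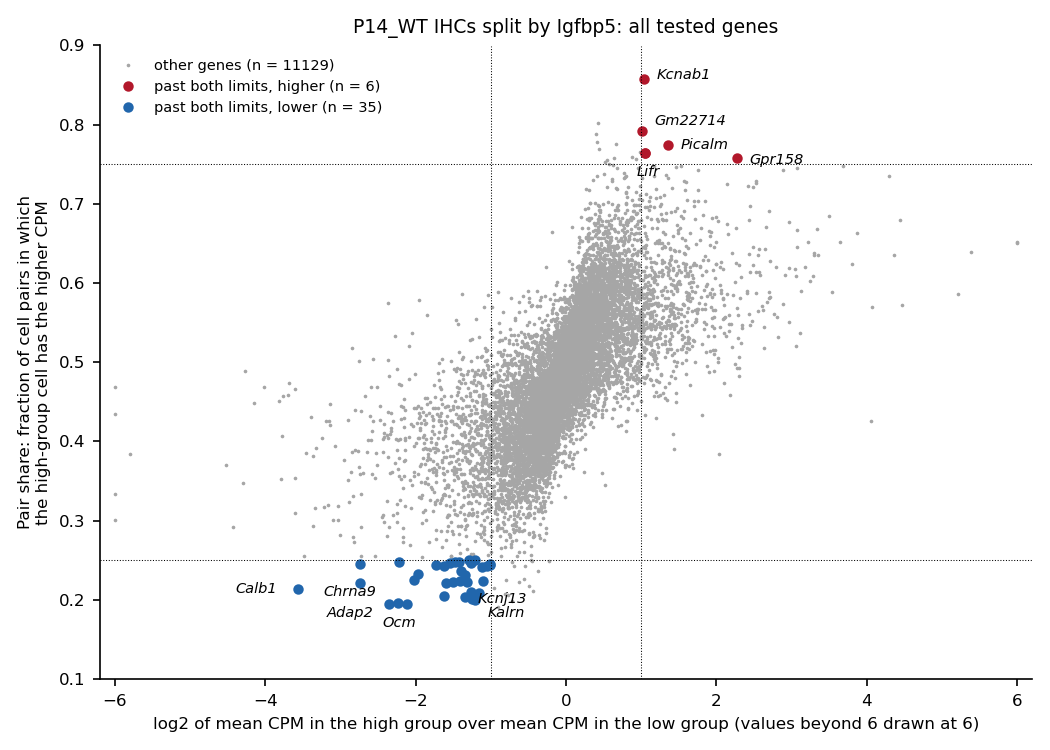
Each point is 1 of 11170 genes in the P14_WT IHCs; the x axis is the log2 ratio of mean CPM in the high group (27 cells) over the low group (28 cells), the y axis the pair share, and dotted lines are the limits. Red points are the 6 higher and blue points the 35 lower genes past both limits, with *Kcnab1* at the top (pair share 0.86) and *Calb1* farthest to the left (log2 ratio -3.57) of the genes marked.

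The gene that followed *Igfbp5* most closely was *Kcnab1* (chromosome 3, from 65109384 to 65378223), which encodes a cytoplasmic beta subunit of voltage-gated potassium channels. It had counts in all cells of both groups and lay between 184 and 1007 CPM in the high group, with a median of 337 CPM. In the low group it lay between 0.128 and 459 CPM, with a median of 175 CPM. The means were 423 ± 217 and 205 ± 108 CPM (SD), a log2 ratio of 1.04, and the pair share was 0.86. Every cell of the high group was above the median of the low group, although the ranges overlapped. When the cells were divided into 3 parts by *Igfbp5*, *Kcnab1* averaged 456 CPM in the top 18, 281 CPM in the middle 19 and 201 CPM in the bottom 18 cells. Its Spearman rank correlation with *Igfbp5* over the 55 cells was 0.62, the highest of the genes tested, and the points of such a correlation share the total count as a divisor.

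*Picalm*, which encodes a clathrin adaptor of endocytosis, lay between 0 and 323 CPM in the high group with a median of 109 CPM, and between 0 and 135 CPM in the low group with a median of 39.3 CPM. Its means were 121 ± 83.9 and 47.2 ± 41.9 CPM (SD), a log2 ratio of 1.36 with a pair share of 0.77. *Lifr*, the receptor subunit for leukaemia inhibitory factor, had medians of 189.5 and 80.2 CPM in the high and low groups, with ranges of 3.44 to 584 and 0 to 251 CPM. *Fmn1*, which encodes a formin that builds actin filaments, had medians of 139 and 52 CPM, with ranges of 9.14 to 404 and 0 to 258 CPM. The log2 ratio of these means was 1.05 for both *Lifr* and *Fmn1*, and the pair share was 0.76 for both. *Lifr* averaged 247 CPM in the top 18 cells but 105 CPM in the middle 19 and 111 CPM in the bottom 18, so the mean of the top part stood above those of the middle and bottom parts, which lay close together.

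The other 2 higher genes were found less evenly. *Gpr158*, which encodes a G protein-coupled receptor of neurons, had counts in 18 of 27 cells of the high group and in 4 of 28 cells of the low group. Its means were 39 ± 59.0 and 8.04 ± 23.2 CPM (SD), with a log2 ratio of 2.28. *Gm22714* is annotated as a ribozyme on chromosome 19 from 37149085 to 37149162, inside the gene *Cpeb3* on the same strand, and it averaged 16.5 ± 10.8 and 8.20 ± 7.87 CPM (SD). Its reads cannot be told apart from unspliced *Cpeb3* RNA. Antisense genes overlap exons of *Kcnab1*, *Fmn1* and *Gpr158*, and whether the counting used strand is not given in the sources used here.

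The 10 genes with the highest rank correlation with *Igfbp5*, among genes of at least 10 mean CPM, were *Kcnab1* followed by *Amot*, *Map4k4*, *Wnk4*, *Ush1c*, *Cry2*, *Kif13b*, *Gpx2*, *Ppil6* and *Ripor3*, with coefficients between 0.62 and 0.52. Apart from *Kcnab1*, these 10 did not pass both limits. *Amot*, which encodes the junctional protein angiomotin, averaged 85.1 ± 106 CPM in the high group and 10.1 ± 17.7 CPM in the low group (SD), with counts in 21 of 27 and 13 of 28 cells and a pair share of 0.74. *Gpx2*, a glutathione peroxidase gene, averaged 4428 ± 1073 and 3355 ± 871 CPM (SD), which is 1.32-fold, with a pair share of 0.79. *Ush1c*, which encodes the stereocilia scaffold harmonin, averaged 1311 ± 442 and 898 ± 339 CPM (SD), with a pair share of 0.76. *Cry2*, a circadian repressor gene, averaged 188 ± 106 and 98.3 ± 84.2 CPM (SD), with a pair share of 0.76. *Gpx2*, *Ush1c* and *Cry2* thus passed the limit on the pair share and not that on the fold. Across all tested genes this coefficient ran from -0.62 to 0.62, and 17 genes were at 0.5 or above and 17 at -0.5 or below.

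Of the 35 lower genes, *Ocm*, *Kcnj13*, *Gm1113*, *Rprm* and *Calb1* had the highest mean CPM. *Calb1* (chromosome 4, from 15881264 to 15908064) encodes the calcium buffer calbindin. It lay between 0 and 589 CPM in the high group with a median of 0.447 CPM, and between 0 and 5821 CPM in the low group with a median of 707 CPM. The means were 89.1 ± 171 and 1058.5 ± 1421 CPM (SD), an 11.9-fold lower mean in the high group, with a pair share of 0.21. Counts were present in 17 of 27 cells of the high group and in 24 of 28 of the low group. The SD exceeded the mean in both groups, and cells with and without *Calb1* occurred in both.

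*Ocm* encodes oncomodulin, a calcium buffer that is abundant in OHCs. It lay between 0 and 2896 CPM in the high group with a median of 119 CPM, and between 13.3 and 5006.5 CPM in the low group with a median of 915 CPM. The means were 276 ± 574 and 1194 ± 1202 CPM (SD), with a log2 ratio of -2.11 and a pair share of 0.19. *Chrna9* encodes a subunit of the acetylcholine receptor at efferent synapses of hair cells. Its medians were 12.2 and 200 CPM, with ranges of 0 to 491 and 0 to 606 CPM, and its means were 52.3 ± 102 and 246 ± 203 CPM (SD), with a log2 ratio of -2.23 and a pair share of 0.20. In both genes the median of the high group was low, while its highest cell was above the median of the low group.

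*Kcnj13*, which encodes the inward rectifier Kir7.1, had medians of 158 and 792 CPM in the high and low groups, with ranges of 0.167 to 1563 and 89.8 to 2533 CPM and a log2 ratio of means of -1.34. *Rprm*, which encodes the cell-cycle protein reprimo and is an IHC marker, had medians of 176 and 689 CPM, with ranges of 0 to 1418 and 38.9 to 1959 CPM and a log2 ratio of -1.27. *Fgf8*, the growth factor gene of IHCs, had medians of 82.6 and 200 CPM, with ranges of 0 to 335 and 0 to 450 CPM and a log2 ratio of -1.21. *Gm1113*, a protein-coding gene on chromosome 9, had medians of 106 and 754 CPM and the lowest rank correlation with *Igfbp5*, -0.62. *Kcnj13*, *Rprm* and *Gm1113* were above 30 CPM in every cell of the low group. Exons of *Kcnj13* overlap those of *Gigyf2* on the opposite strand.

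**Figure D3:**
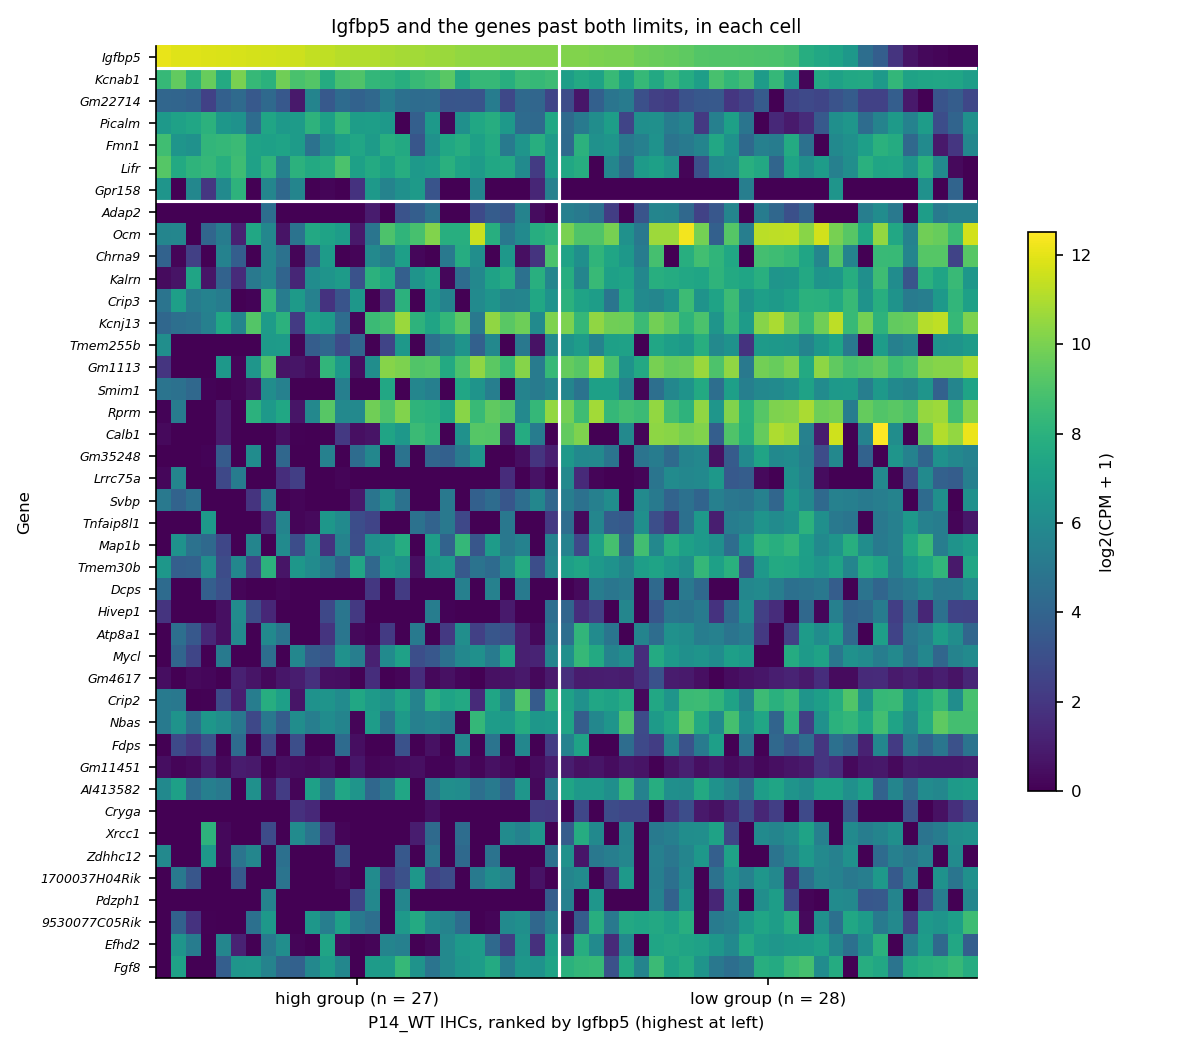
log2(CPM + 1) of *Igfbp5* (top row), the 6 higher and the 35 lower genes in each of 55 P14_WT IHCs, ranked by *Igfbp5* from left to right; white lines separate the cells and the genes. *Ocm*, *Kcnj13*, *Gm1113*, *Rprm* and *Calb1* have lower medians in the 18 cells at the left than in the middle 19 or the bottom 18. They vary from cell to cell within both groups, and *Kcnj13* reaches 1563 CPM among the 18 cells at the left.

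The lower levels did not set in at the border of the groups. From the top 18 over the middle 19 to the bottom 18 cells by *Igfbp5*, *Calb1* averaged 35.1, 440 and 1280.2 CPM, and *Chrna9* averaged 28, 148 and 277 CPM. *Kcnj13* averaged 233, 653 and 965 CPM over the same parts. *Ocm* averaged 121, 930 and 1169.6 CPM, and *Rprm* 233, 671 and 847 CPM, so that these 2 differed more between the top and the middle part than between the middle and the bottom part. *Slc17a8* averaged 1309, 1125 and 1261 CPM, with no order. In the 8 cells under 50 CPM of *Igfbp5* the medians were 1057 CPM for *Calb1*, 348 CPM for *Chrna9* and 578 CPM for *Ocm*, and without these 8 cells the log2 ratios were -3.07, -2.05 and -2.25. All 41 genes kept their direction without these cells, and 4 of the 6 higher and 34 of the 35 lower genes stayed at least 2-fold apart.

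The remaining lower genes that the naming rule takes were *Adap2*, *Kalrn*, *Crip3*, *Tmem255b*, *Smim1* and *Atp8a1*. *Kalrn*, which encodes a guanine nucleotide exchange factor, averaged 73.7 ± 80 and 171 ± 97.5 CPM (SD) in the high and low groups, with counts in every cell of the low group. *Crip3*, a LIM domain gene, averaged 66.5 ± 76.9 and 159 ± 102 CPM (SD). *Adap2* had counts in 10 of 27 and 24 of 28 cells. *Atp8a1*, which encodes a phospholipid flippase, averaged 13.9 ± 20.9 and 54.3 ± 61.6 CPM (SD), and *Tmem30b*, named here after its values were seen because it encodes a partner subunit of such flippases, averaged 62.5 ± 65.7 and 134 ± 77.3 CPM (SD). *Map1b*, a microtubule-associated protein gene of neurons, averaged 54.4 ± 73.7 and 145 ± 124 CPM (SD), and *Efhd2*, which encodes a calcium-binding protein, 39.3 ± 47.7 and 96.3 ± 72.5 CPM (SD), both also named after their values were seen. Over the 35 genes the mean level in all cells ran from 0.540 to 744 CPM with a median of 58.4 CPM, and for 8 of them the median in the high group was 0. By annotation 32 of the 35 are protein coding, 2 are processed pseudogenes, whose reads can come from their parent genes, and 1 is a lincRNA, and for 13 of them exons overlap those of another gene.

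The 35 lower genes also varied together from cell to cell. Over the 55 cells, the Spearman rank correlation of the 595 pairs among them had a median of 0.29, and 99.2% of the pairs were above 0. The pair of *Kcnj13* and *Rprm* had the highest rank correlation, 0.78, followed by *Gm1113* with *Ocm* at 0.75, *Fgf8* with *Rprm* at 0.70 and *Chrna9* with *Rprm* at 0.69. The 15 pairs among the higher genes had a median of 0.28, and the 210 pairs of a higher with a lower gene a median of -0.29. These genes were chosen for their relation to *Igfbp5* in the same cells and share the total count of each cell, so the values are a description.

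**Figure D4:**
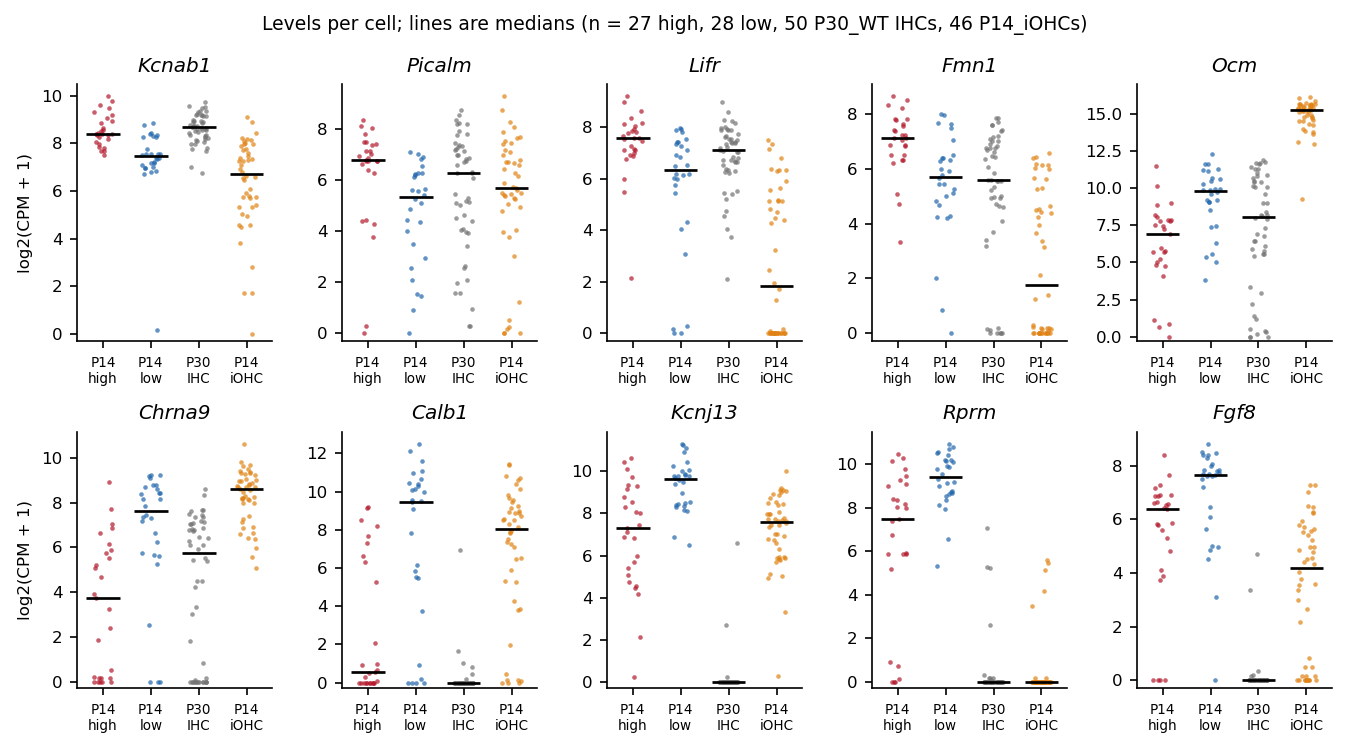
log2(CPM + 1) per cell of 4 higher and 6 lower genes in the high (n = 27) and low (n = 28) groups of the P14_WT IHCs, the 50 P30_WT IHCs and the 46 P14_iOHCs; each point is 1 cell and lines are medians. The groups overlap for each gene, and *Calb1*, *Kcnj13*, *Rprm* and *Fgf8* have a median of 0 in the P30_WT IHCs.

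The levels of these genes in the other cells of the series are given side by side, since each such comparison would use the same P14_WT IHCs. *Kcnab1* averaged 429 ± 167 CPM in the P30_WT IHCs and 141 ± 126 CPM in the P14_iOHCs (SD, n = 50 and 46 cells). *Picalm* averaged 105 ± 109 CPM and *Lifr* 150 ± 99.9 CPM in the P30_WT IHCs. *Calb1* averaged 2.51 ± 17.1 CPM in the P30_WT IHCs and 501 ± 669 CPM in the P14_iOHCs. *Rprm* averaged 4.25 ± 20.0 CPM and *Kcnj13* 2.01 ± 13.4 CPM in the P30_WT IHCs, and *Fgf8* averaged 0.691 ± 3.71 CPM there. *Ocm* averaged 891 ± 1163 CPM in the P30_WT IHCs and 37457 ± 16305 CPM in the P14_iOHCs, and *Chrna9* 77.7 ± 88.6 and 406 ± 289 CPM. Of the 35 lower genes 16 averaged under 10 CPM in the P30_WT IHCs and 7 in the P14_iOHCs, against 1 and 1 of the 6 higher genes. The genes had to pass the count filter in the P14_WT IHCs only. No share over all tested genes is set beside these counts, so they are a description and do not show a change particular to these genes.

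The same division by *Igfbp5* was made in cells that took no part in the choice of the genes. In the P30_WT IHCs (25 against 25 cells), 5 of the 6 higher genes were again higher in the high group, beside 54.6% of all 10169 genes tested there, and 18 of the 23 lower genes that passed the filter were again lower, beside 45.4%. The medians of their log2 ratios were 0.51 and -0.45, against 0.06 over all genes. The lower genes varied together from cell to cell in the P14_WT IHCs, so their number on 1 side is not a number of independent results. *Kcnab1* had a log2 ratio of 0.48 with a pair share of 0.73, *Ocm* of -1.07 with 0.30 and *Chrna9* of -0.96 with 0.35. No gene of the 41 passed both limits in the P30_WT IHCs, where 4 genes were higher (0.0393%) and 4 lower (0.0393%) by these limits. *Calb1*, *Kcnj13*, *Rprm* and *Fgf8* did not pass the filter on counts there. The groups of the P30_WT IHCs also differed in totals, with 9 cells of the lower and 16 of the upper set in the high group against 14 and 11 in the low group, and in mitochondrial share, at 8.40 ± 2.76% against 10.3 ± 6.35% (SD). The part of these differences in the result was not tested.

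In the P14_iOHCs (23 against 23 cells), 27 of the 30 lower genes that passed the filter were again lower in the high group, beside 49.1% of all 11159 genes tested there, with a median log2 ratio of -0.65 against 0.01 over all genes. Here too genes that vary together do not count as independent results. Of the 5 higher genes tested, 2 were again higher, beside 50.9%, and *Kcnab1* was on the opposite side with a log2 ratio of -0.35. No gene of the 41 passed both limits, which 360 genes (3.23%) passed as higher and 23 (0.206%) as lower in these cells. The groups of the P14_iOHCs also differed in supporting-cell markers, with a mean log2(CPM + 1) of 3.65 ± 1.38 in the high and 1.69 ± 1.06 in the low group (SD, n = 23 each), and all 16 tested markers of this list were higher in the high group, with a median log2 ratio of 2.55. The cells of the high group also had more genes with a count, 9859 ± 1761 against 8159 ± 1263 (SD). The part of these markers in the result was not tested.

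**Figure D5:**
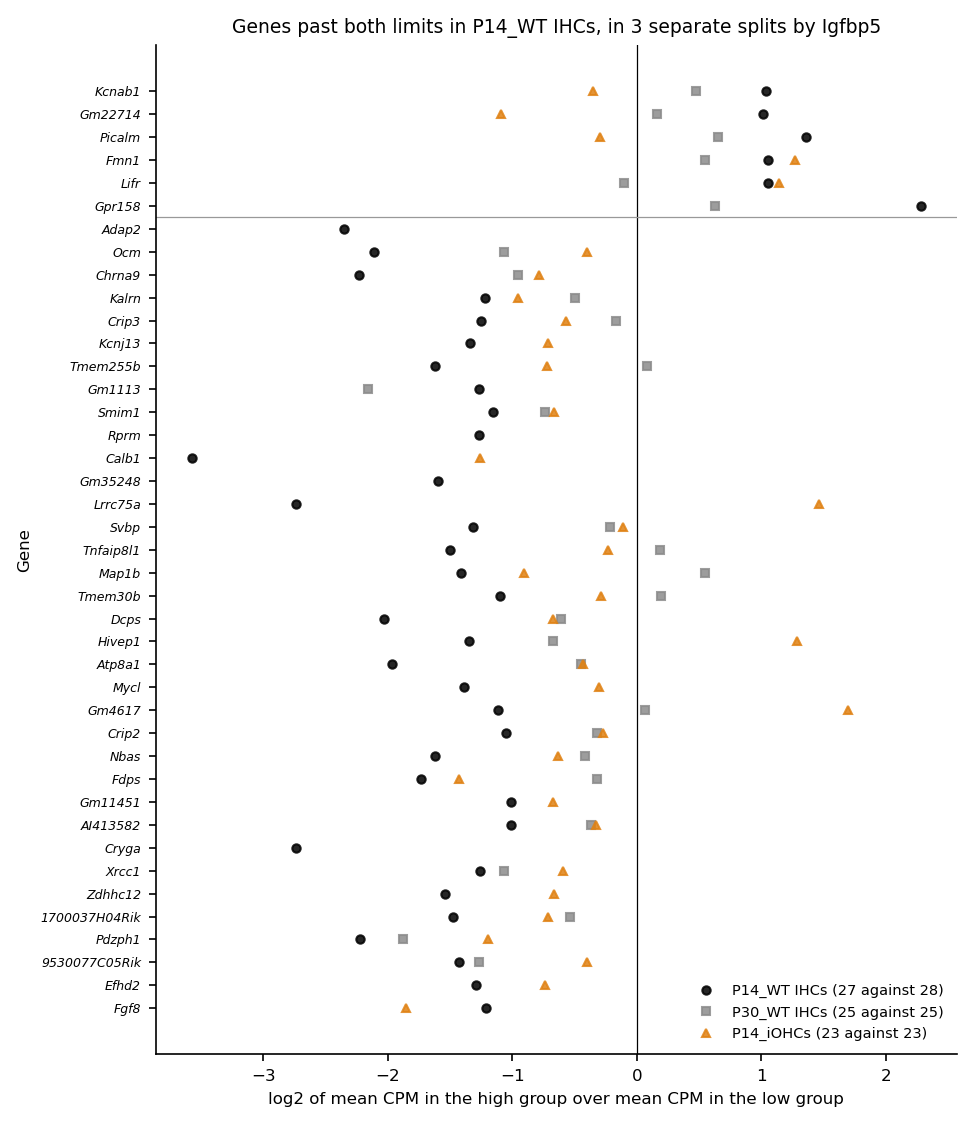
log2 ratio of mean CPM in the high over the low group for the 6 higher genes (above the line) and the 35 lower genes, in 3 kinds of cell divided separately by *Igfbp5*: P14_WT IHCs (circles), P30_WT IHCs (squares) and P14_iOHCs (triangles); genes under the count filter in a kind of cell have no symbol there. Of the lower genes 18 of 23 squares and 27 of 30 triangles lie left of 0, and 22 of the 23 squares and 28 of the 30 triangles lie closer to 0 than the circle of the same gene. The genes were chosen by their ratio in the P14_WT IHCs, so smaller ratios in the other cells can follow from that choice.

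The partners of *Igfbp5* in the insulin-like growth factor system were then described. Of the ligand genes, none of 4 passed the filter: *Igf1* had counts in 5 and *Igf2* in 1 of the 55 cells, with 3.00 and 0.0209 mean CPM, and *Ins1* and *Ins2* had none. No other gene for a binding protein passed either: *Igfbp3* had counts in 4 cells, *Igfbp7* in 5, *Igfbp2* in 3 and *Igfbp6* in 2, and *Igfbp1*, *Igfbp4* and *Igfbpl1* in none. *Igfals*, which encodes a serum partner of the complexes, had counts in 6 cells. *Igfbp5* was therefore the single gene of its family measured in most of these cells.

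Of 4 receptor genes 3 passed the filter and none of them passed the limits. *Igf1r* averaged 84.2 ± 102 CPM in the high group and 75.4 ± 63.4 CPM in the low group (SD), with a pair share of 0.50. *Insr*, the insulin receptor gene, averaged 91.4 ± 91.9 and 72.2 ± 72.3 CPM (SD), with a pair share of 0.56. *Igf2r*, whose product clears ligand from the cell surface, averaged 6.24 ± 20.7 and 5.88 ± 15.6 CPM (SD), with a pair share of 0.43. Among 9 genes for proteases that cut binding proteins and for their inhibitors, *Adam12* averaged 36.4 ± 51.3 and 15.6 ± 24.2 CPM (SD) with a pair share of 0.57, *Ctsd* 71.5 ± 46.6 and 79.8 ± 41.1 CPM (SD) with 0.45, and the others, *Pappa*, *Pappa2*, *Stc1*, *Stc2*, *Htra1*, *Htra3* and *Prss23*, did not pass the filter. Of 30 genes of the signalling chain below the receptor 23 were tested, of which 14 were on the side of the high group and 9 on the other and none passed the limits, with a median log2 ratio of 0.13 that lay between -0.16 and 0.28 under other scalings and subsets of cells. Over all genes tested 51.7% were on the side of the low group.

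As a list the IHC markers differed little between the groups, but *Fgf8* and *Rprm* were more than 2-fold lower in the high group. Of 11 markers tested none passed the limits as higher, beside 0.0537% of all genes tested. As lower 2, *Fgf8* and *Rprm*, passed, beside 0.313%, and the median log2 ratio over the list was 0.08. *Slc17a8* averaged 1234 ± 386 CPM in the high group and 1226 ± 238 CPM in the low group (SD), and *Otof* 3760 ± 916 and 3558 ± 940 CPM (SD). *Tbx2* averaged 300 ± 127 and 222 ± 117 CPM (SD), a log2 ratio of 0.44 with a pair share of 0.69, and *Slc7a14* 453 ± 196 and 348 ± 143 CPM (SD), with a pair share of 0.67. *Dnajc5b* had a pair share of 0.66, *Cabp2* of 0.60, *Atp2a3* of 0.58, *Calb2* of 0.45 and *Grm4* of 0.43. The study's list of IHC genes, which holds *Igfbp5* itself, had 374 tested members with a median log2 ratio of 0.14, of which 239 were on the side of the high group and 135 on that of the low group (36.1%, against 51.7% of all genes tested). *Kcnab1* and *Lifr* of this list passed the limits as higher and *Gm1113* as lower.

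Most of the tested OHC genes were on the side of the low group. Of 12 OHC markers 8 were tested, of which 6 were on that side, beside 51.7% of all genes tested, and 2, *Ocm* and *Chrna9*, passed the limits as lower, beside 0.313% of all genes tested. *Sri*, which encodes the calcium-binding protein sorcin, averaged 456 ± 245 CPM in the high group and 682 ± 311 CPM in the low group (SD), with a pair share of 0.29. *Strip2* and *Lmod3* had pair shares of 0.44 and 0.40. Of the study's OHC genes 92 were tested, of which 73 were lower in the high group (79.3%, against 51.7% of all genes tested), and their median log2 ratio was -0.52, against -0.02 over all genes. Of these, 6 passed the limits as lower, namely *Ocm*, *Chrna9*, *Calb1*, *Efhd2*, *Atp8a1* and *Kcnj13* (beside 0.313% of all genes tested), and 0 as higher (beside 0.0537%). The summed level of the 92 genes lay between 3059 and 8680 CPM with a median of 4951 CPM in the high group, and between 3969 and 16634 CPM with a median of 9120 CPM in the low group. The authors drew up both lists with the P30_WT IHCs of this series on the IHC side. The P14_WT IHCs therefore did not take part in that choice, whereas the P30_WT IHCs did. Membership thus reflects levels at P30 and not at P14. *Kcnj13* averaged 618 CPM over all P14_WT IHCs, 234 CPM in the P14_iOHCs and 2.01 CPM in the P30_WT IHCs. *Calb1* averaged 583, 501 and 2.51 CPM in this order. For *Ocm*, *Chrna9*, *Efhd2* and *Atp8a1* the P14_iOHCs had the highest mean of these kinds of cell. How many of the 92 genes resemble *Kcnj13* and *Calb1* was not tested.

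The same list was then followed in the other divisions by *Igfbp5*. In the P30_WT IHCs 41 of 72 tested OHC genes were lower in the high group (56.9%, against 45.4% of all genes), with a median log2 ratio of -0.22. In the P14_iOHCs 107 of 140 were lower (76.4%, against 49.1%), with a median of -0.43. This was not particular to OHC genes there. Of genes shared by hair cells 14 of 16 were lower (median -0.46), and of mechanotransduction genes 11 of 14 (-0.43). Of stereocilia genes 18 of 26 were lower (-0.43), and of ribbon synapse genes 15 of 20 (-0.39). Of the study's IHC genes 89 of 317 were lower (0.50). The part of the supporting-cell markers, higher in that high group, was not tested. Within the P14_WT IHCs the median of the OHC genes was -0.48 in the lower set of totals (8 against 8 cells) and -0.45 in the upper set (19 against 20 cells), -0.48 in cells with Y-linked counts (16 against 16 cells) and -0.59 in cells without (11 against 12 cells). The medians under all 14 other scalings and subsets lay between -0.66 and -0.45.

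In the P14_WT IHCs other lists of hair cell genes moved less. Of all genes tested 51.7% were on the side of the low group, 0.313% passed the limits as lower and 0.0537% as higher. Of 21 tested ribbon synapse genes 14 were on the side of the high group, none passed the limits and the median log2 ratio was 0.08. Of 15 tested mechanotransduction genes 9 were on the side of the low group, none passed, and the median was -0.04. Of 27 tested genes of stereocilia and their actin core 20 were on the side of the low group and none passed, with a median of -0.20; *Grxcr2* averaged 717 ± 231 and 924 ± 320 CPM (SD) and *Espn* 744 ± 260 and 869 ± 270 CPM (SD) in the high and low groups. Of 15 tested genes shared by hair cells, 11 were on the side of the low group and *Calb1* passed, with a median of -0.13. Of 18 tested genes of calcium handling and activity 11 were on that side and *Calb1* and *Ocm* passed, with a median of -0.05.

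Genes whose level is known to change with the maturation of IHCs were also taken as lists. The shares over all genes tested were 51.7% on the side of the low group and 0.313% past the limits as lower. Of 14 genes of immature IHCs 6 were tested, of which 4 were on the side of the low group and *Chrna9* passed, with a median log2 ratio of -0.74. *Chrna1*, a muscle-type acetylcholine receptor subunit gene, averaged 79.8 ± 85.4 and 165 ± 148 CPM (SD) with a pair share of 0.34, and *Kcnn2*, whose product is the potassium channel coupled to the efferent receptor, 59.9 ± 48.5 and 99.2 ± 79.1 CPM (SD) with a pair share of 0.33. Of 8 tested genes listed as rising with maturation 5 were on the side of the high group and *Kcnj13* passed as lower, with a median of 0.04 that changed sign under 3 of 14 other scalings and subsets of cells. *Kcnj13* does not rise in these data, since it had counts in 3 of the 50 P30_WT IHCs, so its place in this list goes against its values. Of 17 genes that differ along the length of the cochlea 7 were tested, 4 were on the side of the low group and *Calb1* passed, with a median of -0.07 that ran from -0.85 in cells without Y-linked counts to 0.17 in the top 18 against the bottom 18 cells. Of 4 tested neurotrophin genes 3 were on the side of the low group and none passed, and *Ntf3* had medians of 222.5 and 368 CPM with a pair share of 0.30.

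Markers of other cells and of handling were set beside these results. Over all genes tested 51.7% were on the side of the low group. Of 24 supporting-cell markers 11 were tested, 7 on the side of the high group, with none past the limits and a median log2 ratio of 0.07. This direction was not stable, since the median ran from -0.59 to 0.49 and changed sign under 6 of 14 other scalings and subsets, with 8 of 11 on the side of the high group in the lower set of totals and 4 of 11 in the upper set. Their summed level lay between 4015 and 9103 CPM in the high group and between 3803 and 7983 CPM in the low group, of which *Fbxo2* is the larger share, a ubiquitin ligase gene that averaged 4980 ± 955 and 5850 ± 938 CPM (SD). *Gjb6*, a gap junction gene of supporting cells, had counts in 12 cells of the high and 11 of the low group and averaged 120 ± 240 and 56.2 ± 131 CPM (SD), and *Tecta*, a gene of the tectorial membrane, had counts in 12 and 8 cells. Of the 13 markers under the filter, *Otog* had counts in 10 of the 55 cells with a highest count of 8178, *Epyc* in 3 with a highest count of 8224, *Fgfr3* in 1 and *Prox1* in 0. Glia, neuron, mesenchyme, blood and immune lists had 1, 2, 3, 1 and 3 tested members and none past the limits. *Hba-a2*, a haemoglobin gene, averaged 6.19 ± 7.78 and 0.950 ± 1.99 CPM (SD) with a pair share of 0.69. Of the mesenchyme list, *Pdgfra* averaged 65.5 and 59.5 CPM, *Lum* 33.6 and 64.1 CPM and *Col1a1* 12.3 and 4.35 CPM, *Dcn* had counts in 6 cells with a highest count of 10713, and *Col3a1* had none in any cell.

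Of 21 tested genes of the response to dissociation 15 were on the side of the high group and none passed the limits, with a median log2 ratio of 0.25. The 6 on the side of the low group are 28.6%, against 51.7% of all genes tested. In the top 18 against the bottom 18 cells 20 of the 21 were on the side of the high group, with a median of 0.74, and under the 14 other scalings and subsets the median lay between 0.13 and 0.74. *Hsp90aa1*, a heat shock gene, averaged 3830 ± 1013 and 3071 ± 966 CPM (SD) with a pair share of 0.70. Of 13 tested genes of the endoplasmic reticulum stress response 9 were on the side of the low group and none passed, with a median of -0.11. All 4 tested genes of matrix proteins and secreted partners of *Igfbp5* were on the side of the high group and none passed, and *Ccn1* averaged 252 ± 315 and 109 ± 116 CPM (SD). The number on the side of the high group fell to 2 of 4 without the cells high in supporting-cell markers, where the median log2 ratio was 0.38 in place of 1.12, and to 2 of 4 in cells without Y-linked counts, where it was 0.29. All 16 tested genes of the mitochondrial genome were on the side of the high group and none passed, with a median log2 ratio of 0.26, and of 83 ribosomal protein genes 50 were on the side of the low group, with a median of -0.05. The part of the response to dissociation and of the mitochondrial share in the results for *Igfbp5* was not tested. *Xist* and the 4 Y-linked genes did not pass the limits.

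The 41 genes were followed within subsets of the cells. All 6 higher and all 35 lower genes kept their direction within the lower set of totals, within the upper set, in cells with and in cells without Y-linked counts. The median log2 ratio of the lower genes was -1.83 and -1.28 in the lower and upper sets and -1.36 and -1.73 in cells with and without Y-linked counts, and that of the higher genes lay between 1.03 and 1.53. In the same order *Kcnab1* had log2 ratios of 0.79, 1.15, 1.07 and 1.00, and *Calb1* of -3.73, -3.48, -3.85 and -3.27. *Gpr158* was far less even, at 3.51, 2.14, 0.28 and 5.83, and *Fmn1* had 0.38 in the lower set. At least 2-fold apart were 4, 4, 5 and 3 of the 6 higher genes. The same held for 31, 29, 25 and 33 of the 35 lower genes. Leaving out any 1 of the 55 cells changed the direction of none of the 41 genes, and it moved the log2 ratio of *Kcnab1* between 0.96 and 1.11 and that of *Calb1* between -3.92 and -3.31. The limits were less stable, since as few as 2 of the 6 higher genes without the cell numbered 25 in the labels, 3 without cell 36, and 24 of the 35 lower genes without cell 1 still passed both. These subsets are parts of the cells that chose the genes and are no separate evidence.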

How the data were processed

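Single cells of 3 kinds were sequenced after Smart-Seq HT amplification. The values deposited by the authors are raw counts per gene symbol, made by paired-end alignment to GRCm38 with HISAT2 2.1.0 and counting with HTSeq 0.10.0. The submitters' processing notes also name FastQC 0.11.9, Trimmomatic 0.39 and StringTie 1.3.5. Which annotation release was counted, whether strand was used and how reads mapping to more than 1 place were handled is not given in the sources used here. Reads were amplified and carry no molecular identifiers, and long genes gather more counts per molecule.

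CPM, ranks, limits and lists were computed with Python 3.11.15, numpy 2.4.6, pandas 2.3.3 and scipy 1.17.1, and figures with matplotlib 3.10.9. The mean CPM over cells has no pseudocount; log2(CPM + 1) was used in plots, in the marker score and in 1 alternative. GENCODE M21 gave a unique entry for 10951 of the tested genes. Scaling factors for the alternatives came from edgeR 4.0.16 and DESeq2 1.42.0 in R 4.3.3. Thinning drew each cell to 4326416 counts with the seed 20220. The fold, the pair share and the limits were tested on simulated data before use, with 1 spread for all genes. The cells were divided there by column order, so the division by *Igfbp5* was not part of that test.

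Named genes are, in each direction, the 10 past the limits with the pair share farthest from 0.5 and the 5 with the largest ratio among those with a count in 80% of the cells of the group with the higher mean. The 10 highest and 5 lowest rank correlations with *Igfbp5*, the receptors and partners of *Igfbp5*, the IHC markers, members of lists past the limits and the 4 highest members of a described list were added. The gene, the lists and the limits were chosen with earlier results of these data known. Low genes are less precise in the shallow cells.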

Additional observations from a re-analysis of the deposited data

How the results depend on the processing

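The counts of genes past the limits, 6 higher and 35 lower, were within 1.5 times of these values under TMM scaling, DESeq2 size factors, totals without mitochondrial genes or without *Igfbp5*, no filter, a filter of 28 cells, mean log2(CPM + 1), thinned counts and ranking on TMM-scaled CPM, with 5 to 9 higher and 30 to 37 lower. They depended on the limits themselves: a 1.5-fold limit gave 11 higher, a 4-fold limit 1 higher and 8 lower, a pair share of 0.70 gave 41 higher and 98 lower, and one of 0.80 gave 1 and 4. They also depended on the cells: the top 18 against the bottom 18 gave 60 higher and 109 lower, the lower set of totals 302 and 650, the upper set 29 and 56, cells with Y-linked counts 48 and 69, and cells without 139 and 353, each with fewer cells. The number of higher genes was 21 without 10 cells over 3 median absolute deviations in depth, genes or mitochondrial share, and 12 without 8 cells high in supporting-cell markers. Among alternatives chosen after seeing the data it was 16 without the cells under 50 CPM of *Igfbp5* and 20 with genes per cell in the shared range. Without each cell in turn there were 5 to 16 higher and 26 to 40 lower genes; the number of higher genes was 16 without the cell numbered 3 in the labels, 12 without cell 4, 19 or 39, 11 without cell 18 or 51, and 10 without cell 17, 46, 49 or 54. With mean log2(CPM + 1), 5 of the 7 higher genes tested in the P14_iOHCs kept their direction, in place of 2 of 5; the cause was not tested. No log2 ratio of a gene past the limits reversed. Of 1622 ratios of named genes under settings other than leaving out 1 cell, 1607 moved by less than the spread between cells. That spread is wide, with an SD of log2(CPM + 1) of 2.52 for *Gpr158* and 3.97 for *Calb1*. Few moves can exceed it, so this number does not show that the ratios are stable. No paired analysis was possible because each replicate number is 1 cell and stands in 1 of the 2 compared sets only. Depth limits genes near 1 CPM, and the number of animals is unknown.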
